A study of Mus musculus with 6 samples.

Results

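The genes described here encode the main proteases of the lysosome, the acidic compartment in which cells break down proteins taken up from outside or delivered from within. They were the 10 genes named *Ctsa*, *Ctsb*, *Ctsc*, *Ctsd*, *Ctsh*, *Ctsk*, *Ctsl*, *Ctss*, *Ctsz* and *Lgmn*, chosen by gene symbol from 40481 genes in the table of all pools (41388 genes were counted per pool). All 10 were found, each on a single row, and all 10 passed the filter on low counts that left 17287 genes for testing. RNA-Seq was performed on liver RNA from male mice on a C57BL/6 background fed a methionine- and choline-deficient (MCD) diet, which causes fatty liver with inflammation and fibrosis, for 3 weeks. *Mttp-IKO* mice were *Mttp* f/f Villin Cre ERT2 animals, in which tamoxifen (50 µg/g body weight per day for 5 days) deletes the microsomal triglyceride transfer protein gene, needed to assemble chylomicrons, in the intestinal epithelium where the Villin promoter is active. The controls were littermates given vehicle, which the sample labels call wild type. Only the *Mttp-IKO* mice received tamoxifen, so the drug and the deletion cannot be told apart, and whether the controls carried the floxed and Cre alleles is not stated in the same way throughout the sources. Mice were 12 to 16 weeks old, began the diet 3 weeks after the injections and were fasted for 4 h before the liver was taken. Each genotype had 3 pools, numbered 1 to 3, each of RNA from 3 to 4 livers, so the spread given below is that between pools and not between single mice.

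Cathepsins are made as inactive precursors, are sorted to the lysosome by sugar phosphate receptors or sortilin, and become active at acid pH. *Ctsb*, *Ctsc*, *Ctsh*, *Ctsk*, *Ctsl*, *Ctss* and *Ctsz* encode cysteine proteases of the papain family, *Ctsd* an aspartic protease, *Ctsa* a serine carboxypeptidase and *Lgmn* legumain, a cysteine protease that cuts after asparagine and trims other cathepsins to their mature forms. *Ctsa*, *Ctsb*, *Ctsd*, *Ctsh* and *Ctsl* are expressed in most cell types and were treated as broadly expressed. *Ctsc*, *Ctss*, *Ctsz* and *Lgmn* are enriched in macrophages and related cells, and *Ctsk*, best known from bone-resorbing osteoclasts and from fibroblasts, was put in neither class. In whole liver, fewer cells of a type and less RNA per cell cannot be told apart.

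The pools held 25271585 to 36238734 reads assigned to genes, which puts 3 reads at 0.0828 to 0.119 CPM (counts scaled to a common library size). Liver *Mttp* was at 90.3, 185 and 175 CPM in the control pools and at 145, 128.5 and 160 CPM in the *Mttp-IKO* pools, but since the deletion is intestinal this does not check the labels. The 8 hepatocyte markers summed to 54488 to 90356 CPM in the control and to 107589 to 162862 CPM in the *Mttp-IKO* pools, with none at 0. Control pool 2 held 553 CPM of 5 striated muscle markers and control pool 1 held 66.5 CPM. Control pool 3 and the *Mttp-IKO* pools held 0.461 to 1.03 CPM. *Mttp-IKO* pool 3 was poor in short transcripts: coding mRNAs of 1000 to 2000 nt made up 15.9% of its coding reads, against 19.5 to 20.6% elsewhere.

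Per kilobase of exon, the scale on which genes can be compared, *Ctsl* was the most abundant of the 10 mRNAs in both genotypes, at 452 ± 40.7 RPKM in controls and 353 ± 79.8 RPKM in *Mttp-IKO* livers (SD, n = 3 pools each). In controls it was followed by *Ctsd* (402 ± 111 RPKM), *Ctsb* (242 ± 64.0 RPKM), *Ctsz* (232 ± 6.23 RPKM) and *Ctss* (127 ± 50.6 RPKM), then *Lgmn* (71.3 ± 22.9 RPKM), *Ctsa* (40.9 ± 2.87 RPKM), *Ctsh* (36.9 ± 2.01 RPKM), *Ctsc* (16.4 ± 3.57 RPKM) and *Ctsk* (2.36 ± 1.25 RPKM). Among these neighbours the order of *Ctsl* and *Ctsd*, of *Ctsb* and *Ctsz*, and of *Ctsa* and *Ctsh* differed between pools. *Ctsd* was above *Ctsb* and *Ctss* above *Lgmn* in each of the 3 control pools, although the ranges over pools overlapped. In *Mttp-IKO* livers *Ctss* stood 7th rather than 5th, at 40.8 ± 15.5 RPKM, in a stretch from *Lgmn* (48.1 ± 11.1 RPKM) over *Ctsa* (43.3 ± 4.27 RPKM) to *Ctsh* (38.7 ± 4.35 RPKM) in which every neighbouring pair overlapped. *Ctsd* (207 ± 25.5 RPKM) and *Ctsz* (202 ± 88.5 RPKM) overlapped as well, as did *Ctsz* and *Ctsb* (121 ± 4.67 RPKM). The 10 genes together took 0.447 ± 0.101% of all assigned reads in controls and 0.255 ± 0.041% in *Mttp-IKO* livers. In TMM-scaled CPM they summed to 4182 ± 806 and 2709 ± 414. Of these sums *Ctsb* held 1148 and 572 CPM and *Ctsd* 1013 and 521 CPM.

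**Figure D1:**
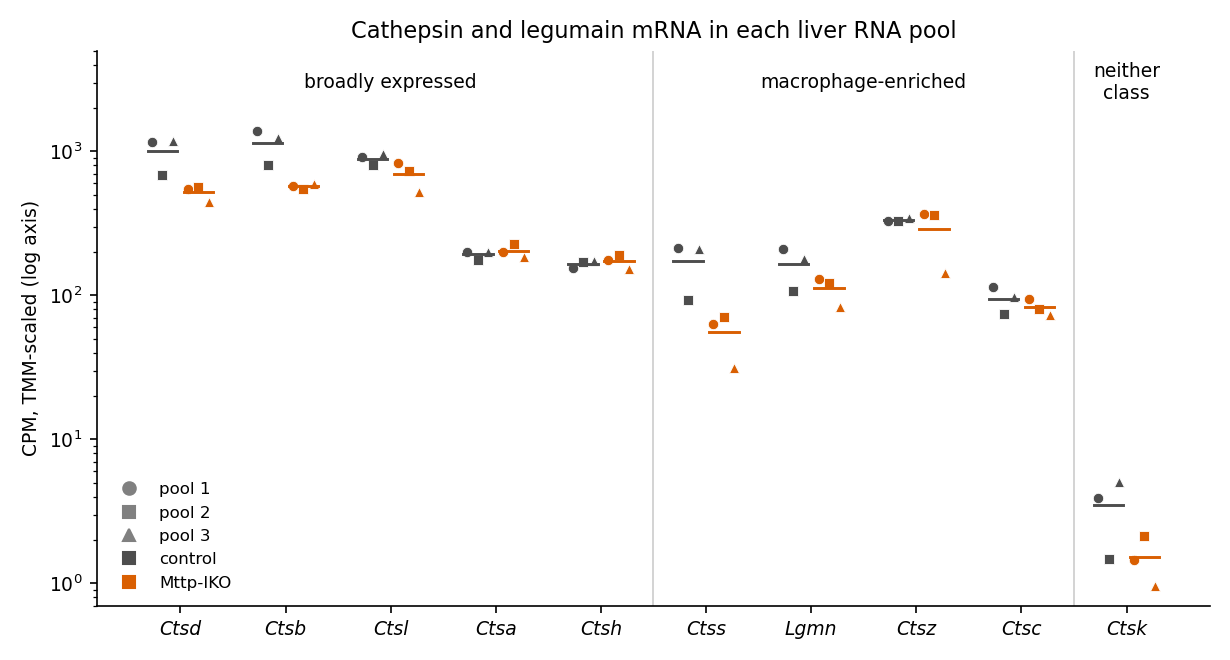
Level of each of the 10 protease genes in the 3 control (grey) and 3 *Mttp-IKO* (orange) pools, in TMM-scaled CPM on a log axis; symbols mark the pool number and bars the mean of 3 pools. The *Mttp-IKO* pools lie below all control pools for *Ctsd*, *Ctsb* and *Ctss*. Control pool 2 is the lowest control for every gene but *Ctsh*, though only just for *Ctsz* (328 against 329 CPM in control pool 1).

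The promoters are shown because these genes belong to a coordinated set: the factor TFEB and its relatives bind the core CACGTG upstream of many lysosomal genes, and PU.1, a factor of macrophages and other blood cells, binds around GAGGAAG. RefSeq start sites on GRCm38.p6, with 250 bases before and 50 after each start, were given for 8 of the 10 genes (10 windows); *Ctsb* and *Ctsh* were not among them. CACGTG, which reads the same on both strands, was found in 4 of the 8 genes and in 8.09% of 27025 genes with a window. The lines below give 30 bases around each site on the strand of the gene, with the motif in capitals. For *Ctsd* the sites start 245 and 98 bases upstream of the RefSeq start (chr7:142388048-142388077 and chr7:142387908-142387937, minus strand). For *Lgmn* the site starts 49 bases upstream of the second of its 2 listed starts (chr12:102439124-102439153, minus strand) and for *Ctsl* 236 bases upstream (chr13:64370739-64370768, minus strand). For *Ctsa*, sites start 12 bases upstream of its second start and 5 bases past it (chr2:164833749-164833778 and chr2:164833766-164833795, plus strand).
Ctsd, far site: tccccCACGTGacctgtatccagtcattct
Ctsd, near site: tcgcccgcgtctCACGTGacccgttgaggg
Lgmn: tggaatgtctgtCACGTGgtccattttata
Ctsl: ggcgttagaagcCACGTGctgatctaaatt
Ctsa, upstream site: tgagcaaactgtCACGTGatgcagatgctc
Ctsa, downstream site: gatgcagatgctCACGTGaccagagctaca

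GAGGAAG, or CTTCCTC when read on the other strand, was found in 3 of the 8 genes and in 15.4% of all genes. In *Ctss* it starts 1 base upstream of the start site (chr3:95526774-95526803, plus strand). In *Ctsc* it starts 197 and 150 bases upstream (chr7:88277877-88277906 and chr7:88277924-88277953, plus strand), and in *Ctsk* 233 and 59 bases upstream (chr3:95498966-95498995 and chr3:95499140-95499169, plus strand). TGACTCA, bound by AP-1 factors, or its reverse complement TGAGTCA, was in none of the 8 and in 5.95% of all genes. No gene held both CACGTG and GAGGAAG in these windows. The genes with CACGTG included *Ctsd*, whose pools did not overlap between the genotypes, and *Ctsa*, whose pools did.
Ctss: atgaaagttcaCTTCCTCattgtggatgct
Ctsc, far site: ccactttccttCTTCCTCctagtggtgcct
Ctsc, near site: tcactaactaaCTTCCTCaggccacctcgt
Ctsk, far site: tcagacattttGAGGAAGaatggagacaac
Ctsk, near site: aaatgtgtgtcCTTCCTCcctaacccctcc

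Next, the 10 genes were compared between *Mttp-IKO* and control livers. None of the 10 passed an adjusted p of 0.05 in edgeR's quasi-likelihood test with Benjamini-Hochberg adjustment over all 17287 genes, where 4.01% of genes passed. At an unadjusted p under 0.05, 4 of the 10 were lower (*Ctsb*, *Ctsd*, *Ctss* and *Ctsk*), against 13.5% of all genes. In 3 of the 10 (*Ctsb*, *Ctsd* and *Ctss*) every *Mttp-IKO* pool lay below every control pool, against 16.5% of all genes, and none lay above, against 14.6%. By the sign of the fold change 8 of the 10 were lower, against 49.5% of all genes, and their median log2 fold change was -0.46, against 0.0059 over all genes tested. DESeq2 put *Ctsb*, *Ctsd* and *Ctss* past an adjusted p of 0.05, where 11.6% of genes passed, and limma-voom put none of the 10 past it, where 2.48% passed. edgeR scaled to total counts passed the same 3 genes, with 5.87% of all genes, and without the low-count filter it passed *Ctsb* and *Ctss*, with 3.56%. The calls depend on the tool and its settings, and no p-value here measures more than the spread between pools.

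*Ctss* encodes cathepsin S, which antigen-presenting cells use to cut the invariant chain from class II molecules and which keeps its activity at neutral pH. Its levels were 214, 92.9 and 209.7 CPM in the control pools and 63.5, 71.2 and 31.5 CPM in the *Mttp-IKO* pools. The groups did not overlap, but the lowest control pool stood closer to the *Mttp-IKO* pools than to the other controls. The mean was 172 ± 68.7 against 55.4 ± 21.0 CPM, a log2 fold change of -1.64 (SE 0.395; 95% interval -2.55 to -0.72; adjusted p = 0.0621, edgeR), or 3.11-fold higher in controls, the lowest log2 fold change of the 10 genes. Without control pool 2 the log2 fold change was -1.95 and the adjusted p 0.0276 (edgeR, where 5.02% of all genes passed in that fit), and without *Mttp-IKO* pool 3 they were -1.35 and 0.0767. Over the fits without any 1 pool the adjusted p of *Ctss* ran from 0.0276 to 0.210 (edgeR).

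*Ctsb* encodes cathepsin B, a protease with both endopeptidase and dipeptide-removing activity that is present in hepatocytes as well as in macrophages. Its levels were 1391, 808 and 1245 CPM in the control pools and 579, 547 and 589.9 CPM in the *Mttp-IKO* pools. The *Mttp-IKO* pools lay close together, all below the lowest control. The mean was 1148 ± 304 against 572 ± 22.2 CPM, a log2 fold change of -1.0 (SE 0.236; 95% interval -1.55 to -0.46; adjusted p = 0.0574, edgeR). Without control pool 2 the adjusted p was 0.0257 (edgeR) at a log2 fold change of -1.22, and over the fits without any 1 pool it ran from 0.0257 to 0.212. *Ctsb* (chr14:63122462-63145919, plus strand) shares 767 nt with the opposite-strand gene *Fdft1*, which encodes squalene synthase and had a log2 fold change of 1.01 (adjusted p = 0.152, edgeR). Whether the counting used strand is not given in the sources used here.

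*Ctsd* encodes cathepsin D, the chief aspartic protease of the lysosome. Its levels were 1165, 689.9 and 1184 CPM in the control pools and 545, 569 and 448 CPM in the *Mttp-IKO* pools. As for *Ctsb* and *Ctss*, the groups did not overlap and control pool 2 was the lowest control. The mean was 1013 ± 280 against 521 ± 64.2 CPM, a log2 fold change of -0.96 (SE 0.252; 95% interval -1.54 to -0.38; adjusted p = 0.0749, edgeR). Without control pool 2 the adjusted p was 0.0327 (edgeR) at a log2 fold change of -1.19, and over the fits without any 1 pool it ran from 0.0327 to 0.269. For each of these 3 genes an exact two-sided permutation test gave p = 0.1, the smallest that 3 pools against 3 allow.

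*Ctsk*, which encodes the collagen-cutting cathepsin K, was scarce. It was at 3.94, 1.47 and 5.08 CPM in the control pools and at 1.45, 2.12 and 0.964 CPM in the *Mttp-IKO* pools, and the groups overlapped through control pool 2. Its log2 fold change was -1.20 (SE 0.489; adjusted p = 0.194, edgeR), and without control pool 2 it was -1.58 (adjusted p = 0.0663, edgeR). *Lgmn* was at 210.1, 107 and 180.1 CPM in the control pools and at 130.4, 123 and 82.5 CPM in the *Mttp-IKO* pools, again overlapping through control pool 2. Its log2 fold change was -0.57 (SE 0.284; adjusted p = 0.277, edgeR), and without control pool 2 it was -0.82 (adjusted p = 0.130, edgeR). With both control pool 2 and *Mttp-IKO* pool 3 left out, a setting chosen after the data were seen, *Ctsb*, *Ctsd*, *Ctss*, *Ctsk* and *Lgmn* passed the threshold in edgeR (adjusted p = 0.006, 0.0072, 0.0021, 0.0331 and 0.0361), as did 12.3% of all genes.

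The other macrophage-enriched members, *Ctsz* and *Ctsc*, overlapped between the genotypes. *Ctsz* encodes cathepsin Z, a carboxypeptidase also called cathepsin X. It was at 329, 328 and 344 CPM in the control pools and at 368, 362 and 144 CPM in the *Mttp-IKO* pools. *Mttp-IKO* pools 1 and 2 were thus above every control and pool 3 far below, and the log2 fold change of -0.20 (SE 0.331; adjusted p = 0.762, edgeR) became 0.13 without pool 3. *Ctsc* encodes cathepsin C, the dipeptidyl peptidase that activates the serine proteases of immune cell granules. It was at 95.1 ± 20.7 CPM in controls and 82.8 ± 10.9 CPM in *Mttp-IKO* livers (log2 fold change -0.20, SE 0.201; adjusted p = 0.587, edgeR).

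Among the broadly expressed members, *Ctsl*, *Ctsa* and *Ctsh* overlapped between the genotypes. *Ctsl*, the most abundant, encodes cathepsin L, a general endopeptidase. It was at 909, 804 and 962 CPM in the control pools and at 833, 727 and 524 CPM in the *Mttp-IKO* pools, with a log2 fold change of -0.36 (SE 0.220; adjusted p = 0.367, edgeR). *Ctsa*, whose product also shields neuraminidase and β-galactosidase in a complex, was at 193 ± 13.5 CPM in controls and 204 ± 20.2 CPM in *Mttp-IKO* livers. *Ctsh*, an aminopeptidase, was at 166 ± 9.02 and 174 ± 19.5 CPM. The 95% intervals of their log2 fold changes ran from -0.29 to 0.45 for *Ctsa* and from -0.30 to 0.44 for *Ctsh* (adjusted p = 0.803 and 0.834, edgeR), so differences of the size seen for *Ctsb* and *Ctsd* lay outside them. Scaled to total counts alone, which moves the median of all genes to -0.17, the values of *Ctsa* and *Ctsh* turned to -0.10 and -0.11, both above that median.

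**Figure D2:**
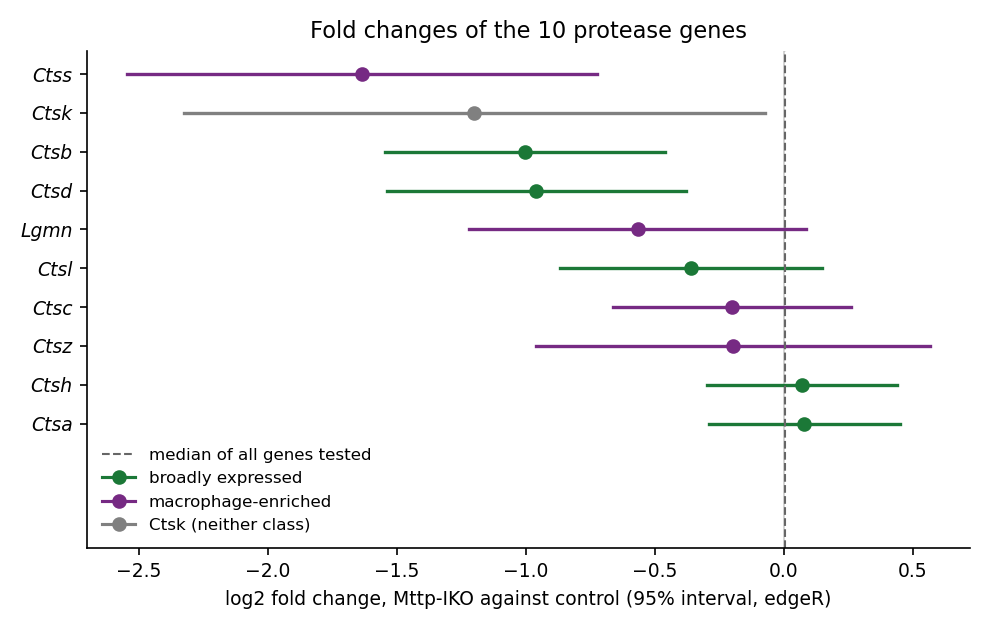
Log2 fold change (points) and 95% interval (lines) of each gene, *Mttp-IKO* against control, from edgeR, coloured by class; the dashed line is the median of all genes tested. The intervals of *Ctss*, *Ctsk*, *Ctsb* and *Ctsd* lie below 0, and both classes hold genes near 0 and genes at or below -0.96.

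The classes did not separate. The 4 macrophage-enriched genes had log2 fold changes of -1.64 to -0.20 (median -0.38) and the 5 broadly expressed genes -1.0 to 0.08 (median -0.36). The mean log2 CPM of the macrophage-enriched genes minus that of the broadly expressed ones was -1.57 ± 0.179 in controls and -1.81 ± 0.330 in *Mttp-IKO* livers, a difference of -0.24. *Mttp-IKO* pool 3 was at -2.19, and without it the difference was -0.05. With *Ctsh*, which macrophages also express well, moved to the macrophage-enriched class the difference was 0.029, and with *Ctsk* added to that class it was -0.33. Per exonic length, the broadly expressed genes made up 72.4 ± 0.227% of the summed RPKM of the 10 in controls and 72.1 ± 5.85% in *Mttp-IKO* livers. The latter mean rests on pool 3: the share was 69.2, 68.3 and 78.9% in *Mttp-IKO* pools 1 to 3, so that pools 1 and 2 lay below and pool 3 above the 72.2 to 72.6% of the control pools. The macrophage-enriched share was 30.7, 31.6 and 21.1% in the *Mttp-IKO* pools and 27.2 to 27.7% in the control pools. Within that sum the share of *Ctss* was 7.57 ± 1.95% in controls and 3.72 ± 0.816% in *Mttp-IKO* livers, while that of *Lgmn* was 4.31 ± 0.733% and 4.49 ± 0.120%.

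**Figure D3:**
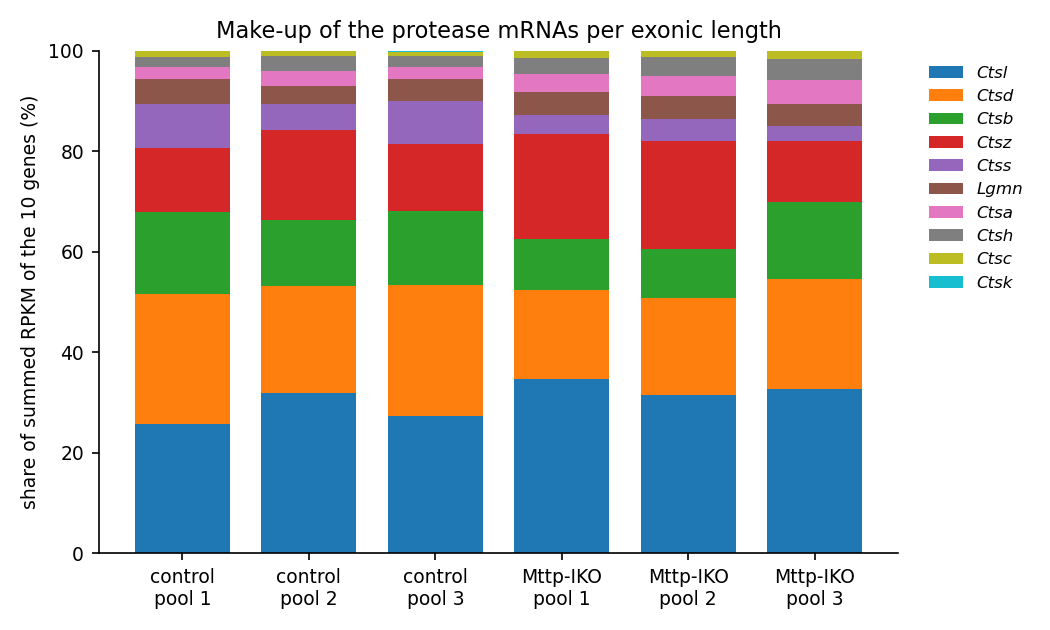
Share of each gene in the summed RPKM of the 10 protease genes, one stacked bar per pool, in percent. *Ctsl*, *Ctsd*, *Ctsb* and *Ctsz* make up most of each bar, and the share of *Ctss* is 5.33 to 8.78% in the control and 2.85 to 4.47% in the *Mttp-IKO* pools.

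The 10 genes also varied together and apart within a genotype. Control pool 2 was at 0.439 times the mean of the other control pools for *Ctss*, 0.325 for *Ctsk*, 0.547 for *Lgmn*, 0.587 for *Ctsd*, 0.613 for *Ctsb* and 0.696 for *Ctsc*. For *Ctsl*, *Ctsa*, *Ctsz* and *Ctsh* the ratios were 0.860, 0.883, 0.975 and 1.04. In the same pool the 10 general macrophage markers summed to 699.7 CPM, against 1294 and 1216 CPM in control pools 1 and 3. Within the *Mttp-IKO* group, pool 3 was at 0.395 times the mean of pools 1 and 2 for *Ctsz*, 0.468 for *Ctss* and 0.539 for *Ctsk*, whose exons span 1441, 1358 and 1482 nt. It was at 0.671 for *Ctsl* (1971 nt) and 0.652 for *Lgmn* (2323 nt), and at 0.804 to 1.05 for the genes of 2519 to 5801 nt. Over all tested genes the median of this ratio was 0.761 at 1000 to 2000 nt, 0.891 at 2000 to 3000 nt and 1.08 at 4000 to 6000 nt. The part of transcript length in the values of *Ctsz* and *Ctss* was not tested beyond the fits without pool 3 and with a length trend removed, in which *Ctss* had a log2 fold change of -1.49 (adjusted p = 0.0524, edgeR) and *Ctsz* one of -0.058 (adjusted p = 0.908, edgeR).

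Markers of macrophages were lower in the *Mttp-IKO* pools too. All 10 general macrophage markers had log2 fold changes below 0 (median -1.12), and 1 of them, *Lyz2*, which encodes lysozyme, passed the threshold (log2 fold change -1.80; adjusted p = 0.0285, edgeR), against 3.09% of all genes passing as lower. Their summed level was 699.7 to 1294 CPM in the control and 364 to 628 CPM in the *Mttp-IKO* pools, with none at 0. All 8 markers of recruited macrophages had log2 fold changes below 0, and 6 passed as lower (edgeR), among them *Cx3cr1*, *Ccr2* and *Itgax* (-2.78, -2.20 and -2.78). The list summed to 312 to 970.0 CPM in the control and 73.5 to 168 CPM in the *Mttp-IKO* pools. The 7 markers of Kupffer cells, the resident macrophages of the liver, summed to 337 to 454 CPM and to 275 to 649 CPM, and *Timd4* rose (4.43, 5.21 and 4.55 CPM in the control against 14.2, 9.42 and 8.21 CPM in the *Mttp-IKO* pools; adjusted p = 0.0425, edgeR, where 0.92% of all genes passed as higher). The call of *Timd4* was lost in 8 of 17 alternatives, with an adjusted p of up to 0.186 (edgeR). *Cd163*, a scavenger receptor gene, lay higher in every *Mttp-IKO* pool (log2 fold change 1.34; adjusted p = 0.056, edgeR), and *Marco*, another, overlapped between the genotypes (1.31; adjusted p = 0.195, edgeR). By the sign of the fold change 3 of the 7 Kupffer cell markers were lower and 4 higher (median log2 fold change 0.12, range -0.74 to 1.34). *Cd5l*, the most abundant of the 7 by length, was among the lower ones, at -1.01 to -0.52 over 17 alternatives. All 8 stellate cell and fibroblast markers were lower by sign and 6 passed as lower (edgeR). The list summed to 625 to 1252 CPM in the control and to 263 to 314 CPM in the *Mttp-IKO* pools. The 6 endothelial markers summed to 364 to 414 CPM in both genotypes. The part of these cell types in the protease levels was not tested.

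The members were next set against the summed general macrophage markers of the same pool, a sum that was itself lower in every *Mttp-IKO* pool. The log2 ratio of *Ctss* to that sum was -2.60, -2.91 and -2.54 in the control pools and -3.31, -2.96 and -3.53 in the *Mttp-IKO* pools. The groups did not overlap, with *Mttp-IKO* lower by 0.58, as was so for 1.99% of all genes. The difference was -0.70 without control pool 2 and -0.45 without *Mttp-IKO* pool 3. For *Ctsb* the ratio was 0.10, 0.21 and 0.034 in the control pools and -0.12, -0.018 and 0.70 in the *Mttp-IKO* pools, higher by 0.073 with overlap. Without *Mttp-IKO* pool 3 the difference was -0.18, without overlap. For *Ctsd* the groups overlapped at a difference of 0.12, which was -0.012 without *Mttp-IKO* pool 3. For *Lgmn* the ratio was -2.62, -2.71 and -2.76 in the control pools and -2.27, -2.17 and -2.14 in the *Mttp-IKO* pools, higher by 0.50 without overlap, as was so for 50.2% of all genes. *Ctsa*, *Ctsh*, *Ctsc* and *Ctsl* also lay higher without overlap, by 1.12, 1.10, 0.85 and 0.66. With *Lgmn* they are 5 of the 10 genes, about the 50.2% of all genes. *Ctsz* was higher by 0.72 with overlap, and by 0.94 without overlap when *Mttp-IKO* pool 3 was left out. Set against the Kupffer cell markers instead, *Ctss* was lower by 1.69, *Ctsb* by 1.04 and *Ctsd* by 0.99, each without overlap, as were *Lgmn* and *Ctsl*. These are 5 of the 10 genes, against 13.8% of all genes. Against the recruited macrophage markers *Ctsb* and *Ctsd* were higher by 1.38 and 1.42 without overlap, as was so for 77.5% of all genes, and *Ctss* was higher by 0.73 with overlap, or by 1.30 without overlap when *Mttp-IKO* pool 3 was left out.

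**Figure D4:**
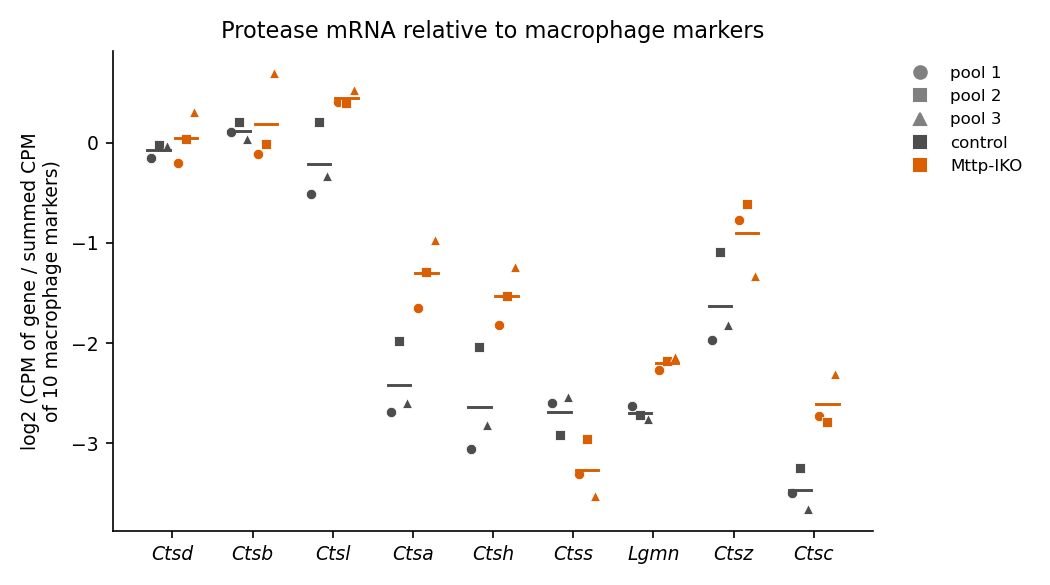
Log2 ratio of each gene's CPM to the summed CPM of 10 general macrophage markers in the same pool, for 9 of the 10 genes (*Ctsk*, at -8.39 ± 0.498 and -8.45 ± 0.379, is below the axis); symbols mark the pool number and bars the mean of 3 pools. *Ctsb*, *Ctsd* and *Ctsz* overlap between the genotypes. *Ctss* is lower in *Mttp-IKO* livers, as were 1.99% of all genes without overlap. *Lgmn*, *Ctsa*, *Ctsh*, *Ctsl* and *Ctsc* are higher, as were 50.2% of all genes without overlap.

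Genes that act with the cathepsins were then examined by role. Of 14 other cathepsin genes 4 were tested and none passed (edgeR, 1 at an unadjusted p under 0.05), and 9 had no read in any pool, among them *Ctsg* of neutrophil granules. *Ctse*, which encodes an aspartic protease of immune and gastric cells, was at 2.55, 0.969 and 1.15 CPM in the control pools and at 0.451, 0.103 and 0.796 CPM in the *Mttp-IKO* pools (log2 fold change -1.82; adjusted p = 0.159, edgeR). *Ctso* and *Ctsf*, the most abundant of this list by counts and by length, had log2 fold changes of -0.27 and 0.10. Of 6 other lysosomal peptidases 4 were lower by sign and 2 higher, and 1 passed as lower. This was *Napsa*, which encodes the aspartic protease napsin A, at 3.22, 2.02 and 2.99 CPM in the control pools and at 0.902, 0.651 and 1.05 CPM in the *Mttp-IKO* pools (log2 fold change -1.66; adjusted p = 0.0378, edgeR). Of all genes 3.09% passed as lower, and the call of *Napsa* was lost in 5 of 17 alternatives. The most abundant of them, *Tpp1*, which encodes tripeptidyl peptidase, was at -0.076.

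Inhibitors limit cathepsins that escape the lysosome or the cell. Of 10 genes of cystatins and other inhibitors 4 were tested and none passed (edgeR, 3 lower at an unadjusted p under 0.05, against 13.5% of all genes), with a median log2 fold change of -0.88. The fourth, *Ctla2b*, was at 0.63 (adjusted p = 0.308, edgeR). *Cst3*, which encodes the secreted inhibitor cystatin C, was at 166, 141 and 158 CPM in the control pools and at 107, 106 and 42.1 CPM in the *Mttp-IKO* pools (log2 fold change -0.86; adjusted p = 0.174, edgeR). *Cstb*, which encodes the cytosolic cystatin B, overlapped between the genotypes (-1.12; adjusted p = 0.186, edgeR). In both, *Mttp-IKO* pool 3 was the lowest of the 6 pools.

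Of 11 genes that sort lysosomal enzymes or act as their partners none passed (edgeR, 4 lower at an unadjusted p under 0.05, against 13.5% of all genes), although in 6 every *Mttp-IKO* pool lay below every control pool, against 16.5% of all genes. *Psap*, which encodes the saposin precursor, was at 1586, 880.3 and 1523 CPM in the control pools and at 613, 715 and 683 CPM in the *Mttp-IKO* pools (log2 fold change -0.99; adjusted p = 0.0731, edgeR). *Sort1*, which encodes sortilin, and *Igf2r*, which encodes the large mannose phosphate receptor, were at -0.96 and -0.62 (adjusted p = 0.0805 and 0.119, edgeR). None of 26 other lysosomal hydrolases passed (edgeR, 8 lower at an unadjusted p under 0.05, against 13.5% of all genes), with a median of -0.22. In 8 every *Mttp-IKO* pool lay below every control pool, against 16.5% of all genes, and in 1 above, against 14.6%. *Pla2g15* and *Arsa*, which encode lysosomal phospholipase A2 and arylsulfatase A, had log2 fold changes of -0.80 and -0.85, and *Lipa*, which encodes acid lipase, -0.37.

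Of 19 genes of the lysosomal membrane and its proton pump, 13 were lower by sign and 6 higher, with a median of -0.16. In 7 every *Mttp-IKO* pool lay below every control pool, against 16.5% of all genes, and in none above, against 14.6%. At an unadjusted p under 0.05 (edgeR) 5 were lower, against 13.5% of all genes. Past the adjusted threshold 1 was lower, against 3.09% of all genes. This was *Atp6v0d2*, a pump subunit typical of osteoclasts and macrophages, at 36.7, 25.0 and 43.9 CPM in the control pools and 6.99, 16.1 and 14.3 CPM in the *Mttp-IKO* pools (log2 fold change -1.50; adjusted p = 0.0499, edgeR). Its call was lost in 10 of 17 alternatives, with an adjusted p of up to 0.173 (edgeR). Just short of the threshold were *Cd68*, also among the macrophage markers, and *Laptm5*, a membrane protein of blood cells (log2 fold changes -1.45 and -1.24; adjusted p = 0.0507 and 0.0581, edgeR). *Lamp1*, the most abundant by length of this list, was at -0.40 (adjusted p = 0.229, edgeR). The 4 genes of factors that regulate lysosomal genes, *Tfeb*, *Tfe3*, *Tfec* and *Mitf*, were tested and none passed (edgeR, 0 at an unadjusted p under 0.05), with log2 fold changes from -0.48 to 0.21.

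The class II antigen genes that cathepsin S serves fell as a list: 7 of 7 passed as lower in edgeR, against 3.09% of all genes, with a median log2 fold change of -2.11. *Cd74*, which encodes the invariant chain that cathepsin S cuts, was at 317, 130.2 and 208 CPM in the control pools and at 65.4, 78.1 and 56.1 CPM in the *Mttp-IKO* pools (log2 fold change -1.71; adjusted p = 0.0324, edgeR). *H2-Eb1*, *H2-Ab1* and *Ciita*, the last encoding the activator of class II genes, were at -2.18, -2.17 and -2.36. As for *Ctss*, control pool 2 was the lowest control for *Cd74*, and the call of *Cd74* was lost in 5 of 17 alternatives, each a fit without 1 pool. Markers of dendritic cells and B cells, which also carry class II molecules, were looked at beside them. Of 5 dendritic cell markers 1 passed as lower (*Flt3*, log2 fold change -2.37; adjusted p = 0.0241, edgeR), and *Xcr1* was at -2.08 (adjusted p = 0.0974, edgeR). The list summed to 25.8 to 33.6 CPM in the control and 21.7 to 31.2 CPM in the *Mttp-IKO* pools, with none at 0. By sign the dendritic cell list held 3 lower and 2 higher markers, with log2 fold changes from -2.37 to 0.22 (median -1.38). Of 4 B cell markers 3 were tested and none passed (edgeR, 2 lower at an unadjusted p under 0.05, against 13.5% of all genes), and the list summed to 2.70 to 3.16 CPM and 0.670 to 1.29 CPM, with *Ms4a1* at 0 in *Mttp-IKO* pool 3. The part of these cells in the class II levels was not tested. Without *Mttp-IKO* pool 2 edgeR called no gene at all in these livers (3221 at an unadjusted p under 0.05), so none of the calls in these lists holds without that pool.

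**Figure D5:**
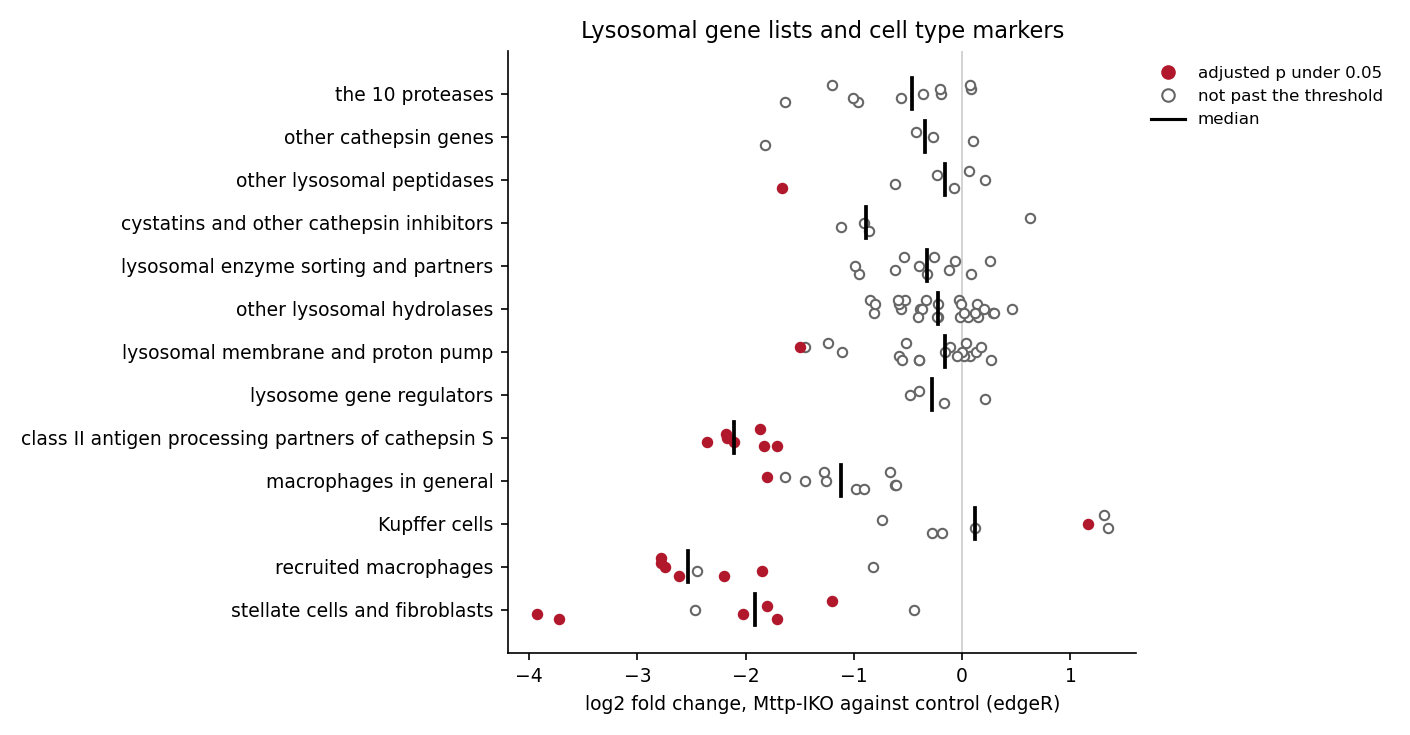
Log2 fold change, *Mttp-IKO* against control (edgeR), of each tested gene in the 10 proteases, in the lists of genes that act with them and in the macrophage and stellate cell marker lists; red points passed an adjusted p of 0.05 and black bars are list medians. The proteases spread from -1.64 to 0.08, the class II list lies wholly at or below -1.71, and the other lysosomal lists have medians of -0.88 to -0.16.

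The genes whose log2 CPM followed *Ctss* most closely over the 6 pools, among 8571 genes compared, were *Hcls1*, *Fcer1g* and *Orm2* (Pearson's r = 0.999, 0.995 and 0.994). *Hcls1* encodes a cytoskeletal adaptor of blood cells, *Fcer1g* the signaling chain of Fc receptors and *Orm2* an acute phase protein of hepatocytes. For *Ctsb* they were *Syk*, *Adgre5* and *Abcc1* (r = 0.998, 0.997 and 0.997), which encode a kinase of immune receptors, the adhesion receptor CD97 and a drug and glutathione conjugate exporter. *Hcls1* was at 29.7, 15.5 and 27.9 CPM in the control pools and at 11.0, 12.3 and 6.29 CPM in the *Mttp-IKO* pools, with the order of *Ctss*. *Syk* was at 68.3, 32.7 and 58.3 CPM and at 22.7, 19.9 and 23.5 CPM, with the flat *Mttp-IKO* pools of *Ctsb*. These are descriptions over 6 pools that share the difference between genotypes, the library and its depth.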

How the data were processed

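Liver RNA of 6 pools was sequenced by the authors, who aligned reads to GRCm38 with STAR 2.5.1a and counted unambiguous reads per gene with featureCounts 1.4.6-p5, as named in the submitters' processing notes and the study's methods. The deposited values were raw counts per gene, with the authors' CPM and RPKM beside them in the values given for each single pool. The CPM and RPKM deposited by the authors were checked against the counts (0 values did not follow from them) and not used further, and 276 repeated lines were dropped. CPM and RPKM here were recomputed with TMM factors (0.899 to 1.11).

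All genes with enough reads by filterByExpr (minimum count 10, minimum total 15) were fitted with edgeR 4.0.16 (R 4.3.3), genotype as the only term, and p-values were adjusted over all of them at 0.05. Alternatives used DESeq2 1.42.0, limma 3.58.1 (voom), other scalings and filters, a loess length trend (span 0.3), a replicate block and fits without single pools. RPKM used the union of exons. The likeness of profiles was taken on log2(CPM + 0.5) for genes with a mean CPM of at least 10. Named genes were the 10 members, the gene with the highest mean RPKM and up to 3 with the smallest p in each list, and the 3 genes most like *Ctss* and *Ctsb*. A gene that this rule would name is not reported here. Permutation tests were exact. The 10 genes, the lists and the classes were chosen with earlier results of these data known. Pools are separate samples in the labels, but whether they share mice is not stated. The procedure was tested on simulated data.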

Additional observations from a re-analysis of the deposited data

How the results depend on the processing

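Of 170 values of the 10 genes under 17 alternatives each, 149 kept their sign and their side of the threshold, 16 passed it where they had not, and 5 turned sign. With total counts alone, without the low-count filter and with DESeq2, 3, 2 and 3 of the 10 genes passed. Leaving out 1 pool gave 0 to 3, the 3 being without control pool 2. With control pool 2 and *Mttp-IKO* pool 3 both left out, 5 passed. Over all genes, 694 passed, against 1995 with DESeq2, 428 with limma-voom, 0 to 892 when 1 pool was left out and 2146 with both of those pools left out. The 0 came without *Mttp-IKO* pool 2 and 24, 21 and 55 without control pool 1, control pool 3 and *Mttp-IKO* pool 1. The fits without control pool 2 and without *Mttp-IKO* pool 3, which also leave out 1 pool each, passed 892 and 864. The cause was not tested. Lower genes were 77.1% of calls, 88.9% with total counts and 59.0% with the length trend removed. The class difference turned to 0.029 with *Ctsh* moved, was -0.33 with *Ctsk* added to the macrophage-enriched class, and was -0.35 to -0.05 when 1 pool was left out.

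Values that turned sign were all small. With total counts *Ctsa* was at -0.10, *Ctsh* at -0.11 and *Ctsf* at -0.085. When 1 pool was left out *Ctsh* ranged from -0.0064 (without *Mttp-IKO* pool 2) to 0.16 and *Ctsz* from -0.40 to 0.13 (without *Mttp-IKO* pool 3). *Ctsz* was at 0.11 with both pools left out, where *Tfe3* was at -0.051. *Tpp1* was at 0.028 with the length trend removed. *Mttp* was at 0.00502 with limma-voom, 0.0068 with the replicate block, 0.028 with the length trend removed and 0.038 with both pools left out, and it ranged from -0.34 to 0.10 when 1 pool was left out.

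Pools with the same number deviated together only weakly (r = 0.139, 0.112 and 0.00698), so the numbers were not taken to pair the samples. Among the controls *Mttp-IKO* pool 3 correlated best with control pool 2, but r was only 0.0208, against -0.0295 with control pool 1 and 0.00698 with control pool 3. With the replicate block 595 genes and none of the 10 passed.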
